A study of Mus musculus with 2 samples.

Results

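Heterotrimeric G protein subunits are encoded by families of genes named Gna (alpha), Gnb (beta) and Gng (gamma). Members were taken by name: Gna followed by i, o, q, t, z, l or a number, Gnb followed by a single digit, and Gng followed by a number or by t and a number. Gnas was left out by this rule. In the annotation used, 34 genes matched by name. The processed pseudogenes Gng2-ps1 and Gng5-ps were dropped because they are not protein-coding. The remaining 32 genes, of 22028 protein-coding genes and 55536 genes in all, were 15 alpha, 5 beta and 12 gamma genes, and no measured value was used to choose them.

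The samples formed a single group: hippocampal tissue, described in the labels as a layer of hippocampus, from 36-day-old females of B6CASTF1/J, a hybrid with 1 parent of C57BL/6J and 1 of CAST/EiJ. Total RNA-seq was made from 300 ng of RNA, with ERCC spike-in RNAs added, in 2 libraries numbered as biological replicates 1 and 2. The libraries carry separate biosample identifiers and 1 shared donor identifier, so the spread between them may be partly technical. No treatment, mutant or second tissue is part of the design, so the data give levels and their spread, with no comparison between conditions and no p-value.

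A G protein couples a receptor at the cell surface to enzymes and ion channels inside the cell. The alpha subunit binds GDP at rest, exchanges it for GTP when a receptor is activated, and separates from a beta-gamma dimer that signals in its own right. Among alpha subunits, those of Gi, in the Gi/o family, lower cyclic AMP, and those of the Gs/olf family raise it. Alpha subunits of Gq/11 act through phospholipase C beta, and those of G12/13 act through guanine nucleotide exchange factors of small GTPases. In hippocampal neurons, Go and Gi carry the signals of many inhibitory receptors, and their beta-gamma dimers open potassium channels and inhibit calcium channels of presynaptic terminals.

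The coding ends of the subunits carry the sites that set how they are modified, so a few are shown, as the last codons with the stop codon, 5′ to 3′ on the coding strand, from GENCODE M21 transcripts on mm10. Capitals mark the cysteine codon 4th from the end. In alpha subunits of the Gi/o family this cysteine is the residue that pertussis toxin modifies, and its place is taken by another codon in Gnaz, Gnaq, Gna11 and Gna12. Here are 3 alpha genes with the cysteine codon and 4 without it.
Gnao1: cggggcTGCggcttgtactga
Gnai1: aaagacTGTggtctcttctaa
Gnai2: aaggacTGTggcctcttctga
Gnaz: aagtacatcggcctttgctga
Gnaq: aaggagtacaatctggtctaa
Gna11: aaggagtacaacctggtgtga
Gna12: aaagacatcatgctgcagtga

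In gamma subunits the same place holds the cysteine to which a prenyl lipid is attached, the anchor that holds the dimer at the membrane. All 12 gamma genes had the cysteine codon 4th from the end. The last codon decides the lipid: with leucine there the lipid is geranylgeranyl, and with serine it is farnesyl. The coding ends of 3 gamma genes that end in leucine are set here above the 3 that end in serine.
Gng2: TGCgccatcctttaa
Gng3: TGTgcgctcctctga
Gng7: TGCataattctctag
Gng11: TGTgtcatttcataa
Gngt1: TGTgtgatttcatag
Gngt2: TGTgtgctaagctga

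Levels are given in TPM, a transcript abundance that corrects for the length of the RNA and for the size of the library, so that genes can be set beside each other. The files hold 2 quantifications of each library. TPM is that of the gene table, called the first quantification, unless the second is named, and ± is the SD over n = 2 libraries. Detection was set at 1 TPM in each of the libraries. Expected counts summed to 32443493 in replicate 1 and 30125178 in replicate 2. The markers of hippocampal cells were present in both, with 5 of 5 detected for excitatory neurons, interneurons, astrocytes, oligodendrocytes and microglia. Replicate 2 stood apart for RNA of a neighbouring tissue: the choroid plexus list, whose 8 genes were all higher in that library, summed to 26.7 TPM in replicate 1 and 1293 TPM in replicate 2. The oligodendrocyte list, with 5 of 5 genes lower in replicate 2, summed to 1432 TPM in replicate 1 and 1090 TPM in replicate 2. In bulk tissue, fewer cells of a type and less RNA per cell cannot be told apart.

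Of the 32 subunit genes, 25 were detected: 11 alpha, 4 beta and 10 gamma genes. Among all protein-coding genes the detected share was 57.6%. Summed over members, alpha subunit RNA was at 702 ± 24.2 TPM, beta subunit RNA at 607 ± 12.7 TPM and gamma subunit RNA at 396 ± 8.00 TPM. The detected members ran from Gnb1 and Gnao1, high among the protein-coding RNAs of the tissue, down to Gngt2 and Gna15, just above the detection limit.

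**Figure D1:**
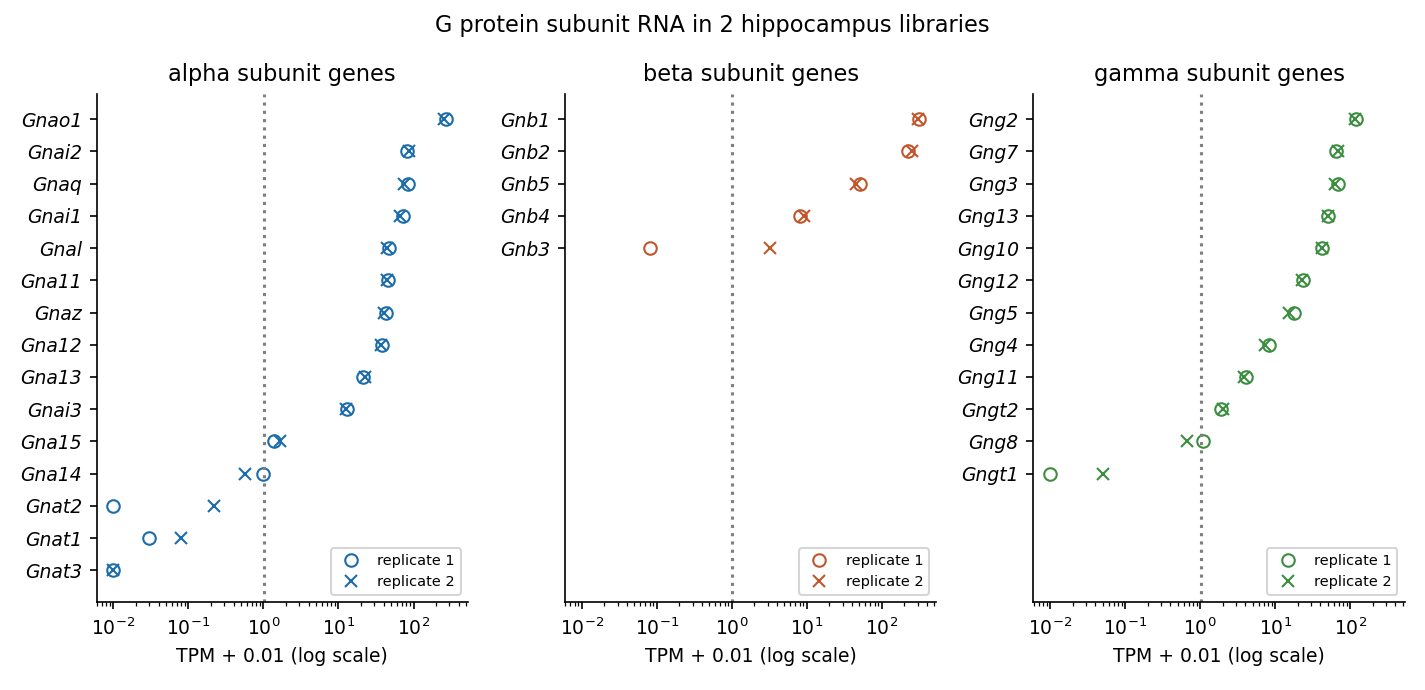
Level of each of the 32 subunit genes in replicate 1 (circles) and replicate 2 (crosses), as TPM + 0.01 on a log axis, ordered by mean TPM within the alpha, beta and gamma classes, with a dotted line at 1 TPM. The replicates lie close together for all detected genes, and Gnb3 is the member with the widest gap, at 0.07 TPM in replicate 1 and 3.20 TPM in replicate 2.

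Gnao1 (chromosome 8, 93809966 to 93969388, mm10) encodes the alpha subunit of Go, the most abundant G protein of neurons. Its RNA was at 269 TPM in replicate 1 and 252 TPM in replicate 2. That placed it at rank 173 of the 12679 detected protein-coding genes. It took 37.1% ± 0.48 of the alpha subunit TPM, and the next alpha gene, Gnai2, took 12.1% ± 0.81. Gnas, which encodes the stimulatory alpha subunit and several other products of an imprinted locus, was not a member. It was at 744 TPM in replicate 1 and 729 TPM in replicate 2, above Gnao1 in both libraries, and with Gnas counted the share of Gnao1 would be 18.1%.

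The other Gi/o members followed at lower levels. Gnai2, the Gi subunit found in most cell types, was at 83.1 TPM in replicate 1 and 86.9 TPM in replicate 2. Gnai1, the Gi subunit that is prominent in brain, was at 72.6 TPM in replicate 1 and 66.9 TPM in replicate 2. Gnaz encodes a Gi/o member that hydrolyses GTP slowly and lacks the toxin site, and had 43.4 TPM in replicate 1 and 40.4 TPM in replicate 2. Of the Gnaz level, 34.4% in replicate 1 and 35.0% in replicate 2 was assigned to Gnaz-203, a transcript not annotated as protein-coding. Gnai3, the third Gi subunit, was the lowest of the detected Gi/o members, with 13.2 and 12.6 TPM. These levels of 5 genes, with the transducin and gustducin genes below the limit, put 66.9% ± 0.024 of the alpha subunit TPM in the Gi/o family. Genes with the cysteine codon shown above, Gnao1, Gnai1, Gnai2, Gnai3, Gnat1, Gnat2 and Gnat3, held 61.0% ± 0.12 of the alpha TPM, and the difference between these shares is the part of Gnaz. A glycine codon right after the start codon, where Gi/o subunits receive their myristoyl group, was present in 9 of the 15 alpha genes, the 8 of the Gi/o family and Gnal, which together held 73.5% ± 0.13 of the alpha TPM.

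Gq/11 members came next, with 18% ± 0.23 of the alpha TPM. Gnaq was at 83.2 TPM in replicate 1 and 75.3 TPM in replicate 2, so its range overlapped that of Gnai2 and the order of these neighbours was not separated. Gna11, whose coding sequence is 80.7% identical to that of Gnaq, was at 45.3 TPM in replicate 1 and 44.9 TPM in replicate 2. Gna15, known from blood-forming cells, was at 1.36 and 1.66 TPM, with 45 and 51 counts. Gna14, the remaining member of the family, was at 0.98 and 0.55 TPM and was not detected by the rule. Gq/11 RNA in these libraries was therefore almost wholly that of Gnaq and Gna11.

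G12/13 RNA took 8.50% ± 0.36 of the alpha TPM, with Gna12 at 38.0 and 37.1 TPM and Gna13 at 21.4 and 22.9 TPM in replicates 1 and 2. The Gs/olf family is represented by Gnal alone, the olfactory and striatal stimulatory subunit. Its RNA was at 47.8 TPM in replicate 1 and 44.1 TPM in replicate 2, or 6.54% ± 0.15 of the alpha TPM, and its range overlapped that of Gna11. Of the 6 markers of striatal neurons, 5 were detected, and the median level over all 6 was 3.90 TPM. Of the 4 markers of olfactory receptor neurons 1 was detected.

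The alpha genes of sensory cells were at or near 0. Gnat1, the transducin subunit of rods, had 1 count in replicate 1 and 3 counts in replicate 2. Gnat2, the transducin subunit of cones, had 0 counts in replicate 1 and 10 counts in replicate 2. Gnat3, the gustducin subunit of taste cells, had 0 counts in both libraries, where a floor of 3 counts corresponds to 0.09 and 0.10 CPM, counts scaled to library size. Intervals and floors cover counting error only.

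**Figure D2:**
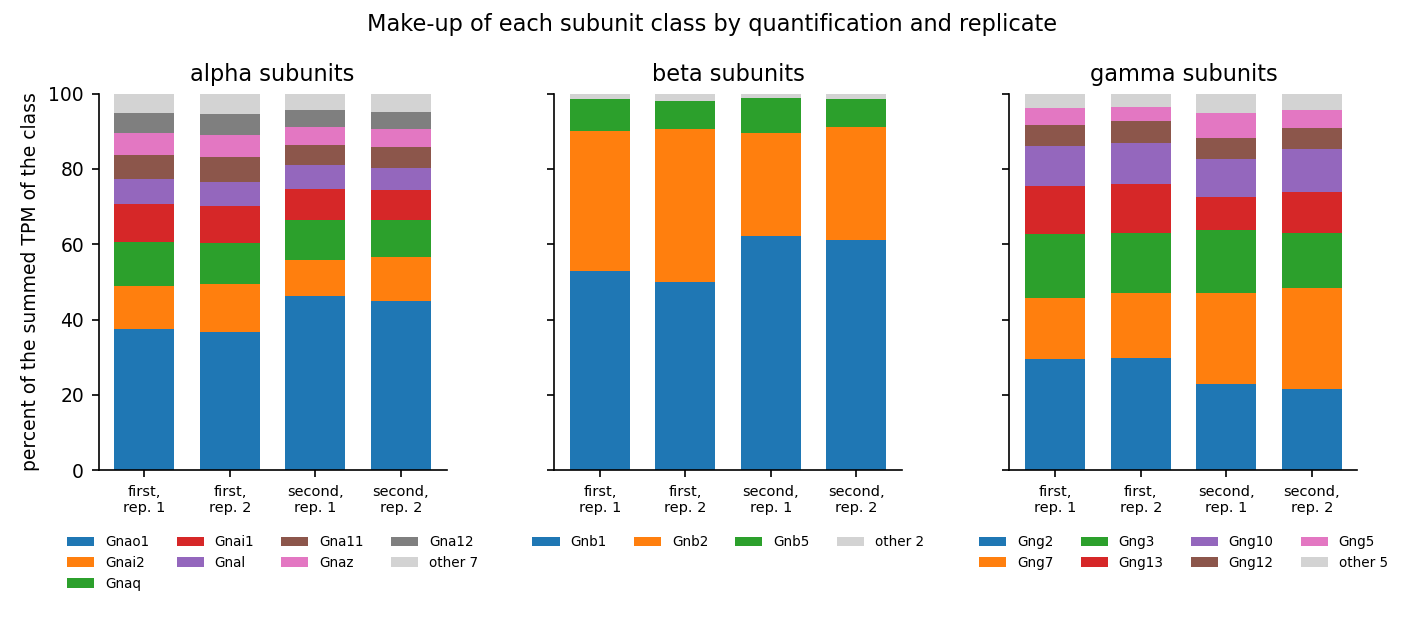
Percent of the summed TPM of the alpha, beta and gamma subunits taken by each gene, in replicates 1 and 2 and in both quantifications; genes with a mean share under 4% in the first quantification are drawn together in grey. Gnao1 and Gnb1 lead their classes in all 4 bars, while Gng2 leads the gamma class in the first quantification and Gng7 in the second.

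Beta subunits are propellers of repeated WD motifs that form a lasting dimer with a gamma subunit. Gnb1 (chromosome 4, 155491361 to 155559269) had the highest level of all members, 317 TPM in replicate 1 and 308 TPM in replicate 2, rank 120 among detected protein-coding genes. Gnb2 (chromosome 5, 137528127 to 137533510) was at 222 TPM in replicate 1 and 251 TPM in replicate 2. Together they held most of the beta TPM, 51.4% ± 2.19 for Gnb1 and 38.9% ± 2.62 for Gnb2. Their ranges over the libraries did not overlap.

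These levels rest on 4951 and 4953 counts for Gnb2 and on 16772 and 15196 counts for Gnb1. Part of the Gnb2 TPM was assigned to short transcripts with a retained intron, which held 42.0% of it in replicate 1 and 54.6% in replicate 2. In the second quantification that share was 12.6% and 31.5%. The 2 transcripts that encode the complete subunit of 340 codons were at 57.8 ± 2.2 TPM in sum. The 4 corresponding transcripts of Gnb1, also of 340 codons, were at 207 ± 10.01 TPM. The second quantification gave 123 ± 8.86 TPM for these Gnb2 transcripts and 312 ± 11.9 TPM for those of Gnb1. Gnb1 was thus above Gnb2 in RNA for the complete subunit in both.

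Gnb5 and Gnb4 were lower. Gnb5 encodes the divergent beta subunit, which pairs with RGS proteins of the RGS7 family in place of a gamma subunit. It was at 51.4 TPM in replicate 1 and 45.3 TPM in replicate 2. Its coding sequence, taken from a form of 395 codons, was 53.1 to 54.7% identical to those of the other beta genes. Those genes, of 340 codons, were 73.0 to 77.1% identical among themselves. Identity was taken over all alignment columns, 1202 for Gnb1 with Gnb5 and 1023 for Gnb1 with Gnb2. Gaps count as differences, so the greater length of this Gnb5 form lowers its identity. Gnb4 was at 8.16 and 9.15 TPM. Retained-intron transcripts made up 55.6% of the Gnb4 TPM in replicate 1 and 68.6% in replicate 2 by the first quantification, and 37.9% and 26.3% by the second, so the direction between the libraries depended on the quantification.

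Gamma subunits are small proteins that fix the dimer to the membrane and differ from each other more than the beta subunits do. Gng2 (chromosome 14, 19872559 to 19977627), a gamma subunit abundant in brain, led the class at 119 TPM in replicate 1 and 116 TPM in replicate 2. It took 29.7% ± 0.047 of the gamma TPM. Gng3, a neuronal gamma subunit, was at 68.8 and 62.2 TPM, and Gng7, the partner of Golf in striatum, at 64.4 and 68.2 TPM. The ranges of Gng7 and Gng3 overlapped, so their order was not separated.

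Gng13, known from taste and olfactory cells and from retinal bipolar cells, came next at 51.0 and 50.6 TPM. Its level rests on 305 and 284 counts. The gene has 773 exon bases, but 98.3 and 99.3% of its TPM was assigned to a transcript of 347 bases. It held 12.8% of the gamma TPM but 1.83% of the gamma CPM, which is not per length, so its place depends on this short length. None of the 5 markers of taste and chemosensory cells was detected. The broadly expressed Gng10 was at 42.0 and 41.7 TPM, Gng12 at 23.4 and 22.8 TPM and Gng5 at 17.9 and 15.02 TPM. Gng4, another brain gamma subunit, was at 8.14 and 7.40 TPM. Gng10 shares its exons in part with the readthrough gene Gm20503, which takes in 946 of its 1314 exon bases on the same strand, and the counts of Gng10 in replicate 1 and of Gng5 in replicate 2 were not whole numbers, so their values are uncertain.

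The 9 gamma genes that end in leucine held 98.5% ± 0.01 of the gamma TPM. Of the 3 that end in serine, Gng11, a gamma subunit of endothelial and other non-neuronal cells, was at 4.09 and 3.86 TPM. Gngt2, the gamma subunit of cones, was at 1.88 and 1.98 TPM, from 22 and 23 counts. Its exons share 234 bases with Abi3 on the opposite strand, which was at 2.57 and 2.65 TPM, and whether counting used the strand is not given in the sources used here. Gngt1, the gamma subunit of rods, had 0 counts in replicate 1 and 1 count in replicate 2. Gng8, known from olfactory and vomeronasal neurons, had 13 and 8 counts and was below 1 TPM in replicate 2. Leucine-ending gamma RNA was thus nearly the whole of the gamma RNA measured.

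The same opposite-strand limit touches other members. Of the exon bases of Gng13, 51.6% overlap Chtf18, which was at 0.66 and 1.08 TPM, far below Gng13 itself. For Gng3 the overlap was 24.2%, with Bscl2, which was at 45.0 and 41.8 TPM and so not far below Gng3. The Gng3 level is therefore less certain than that of Gng2, whose overlapping non-coding gene Gm48283 was at 0.03 and 0 TPM.

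Levels in the second quantification, in which the TPM of a gene is the sum over its transcripts, were higher for most protein-coding genes, with a median ratio to the first of 1.71 over the 12679 detected ones and a range of 1.35 to 2.52 from the 5th to the 95th percentile. For the 25 detected members the median ratio was 1.57, from 1.04 for Gng2 to 2.54 for Gngt2. The order of the 11 detected alpha genes was the same in both quantifications, and so was that of the 4 beta genes. Among the 10 detected gamma genes 4 kept their place. Gng7 led there at 139.8 ± 19.7 TPM, ahead of Gng2 at 122 ± 3.42 TPM. Of this Gng7 level, 35.0 TPM in replicate 1 and 60.5 TPM in replicate 2 was assigned to Gng7-206. That transcript has 374 bases and no complete coding sequence, and the lead of Gng7 rests on it. Gnb1 stood at 715 ± 82.7 TPM and Gnao1 at 591 ± 29.6 TPM in the second quantification. The choice between the quantifications moved these levels by more than the spread between the libraries.

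Alternative transcripts of Gnao1 end in different coding exons, and the gene is known to give a pair of Go proteins that differ in their carboxyl-terminal part, named oA and oB. The forms, which were not matched to these names here, have stop codons at position 93956252 (upstream, 1 transcript) and position 93967055 (downstream, 2 transcripts) of chromosome 8. Both have 354 codons, and 88 of their 1062 coding bases differ, all from codon 246 onwards. The last 63 bases are shown on the coding strand, the plus strand of mm10, with the 15 bases that differ in capitals.
Gnao1 upstream: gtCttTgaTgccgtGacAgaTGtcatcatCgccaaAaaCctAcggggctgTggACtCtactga
Gnao1 downstream: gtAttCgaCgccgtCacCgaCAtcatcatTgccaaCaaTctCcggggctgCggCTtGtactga

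The downstream end made up most of the complete coding RNA of Gnao1. It was at 176 TPM in replicate 1 and 154 TPM in replicate 2, and the upstream end at 30.6 and 30.2 TPM. The downstream share was 84.4% ± 1.08 in the gene table's quantification and 83.8% ± 1.21 in the other, a difference smaller than the spread between the libraries. Transcripts without a complete coding sequence were left out of this share. Among them was Gnao1-206, annotated as protein-coding, at 19.8 ± 2.64 TPM in the first quantification and 168 ± 0.56 TPM in the second. In the second it had the highest level of all Gnao1 transcripts, so much of the Gnao1 RNA there was assigned to neither end. Both ends keep the cysteine codon of the toxin site. Retained-intron transcripts took 16.3% of the Gnao1 TPM in replicate 1 and 17.8% in replicate 2.

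For other members the forms depended on the quantification. Gnb5 has a long form of 395 codons, known from retina, and a short form of 353 codons, which starts downstream. The short form held 96.6% ± 3.39 of the TPM of these 2 forms by the first quantification, against 43.3% ± 0.65 by the second, so these data do not settle which form prevailed. Gnal has a form of 448 codons with its own first exon and a form of 381 codons. Shorter reading frames with other stop codons were left out. The longer form held 60.1% ± 1.11 of the TPM of the 2 forms by the first quantification, and 55.4% and 56.6% of that of the whole gene in replicates 1 and 2. By the second, of the 2 forms, it held 50.5% ± 2.2, where the order of the forms differed between the libraries. For Gnb2 the complete form of 340 codons held 54.3% ± 2.61 and 52.3% ± 4.84 of the complete coding TPM in the first and second quantification. A form of 240 codons that starts downstream was assigned 45.4% ± 3.09 in the first and 27.5% ± 7.57 in the second. One of 296 codons was assigned 0.34% ± 0.48 in the first and 20.2% ± 12.4 in the second.

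**Figure D3:**
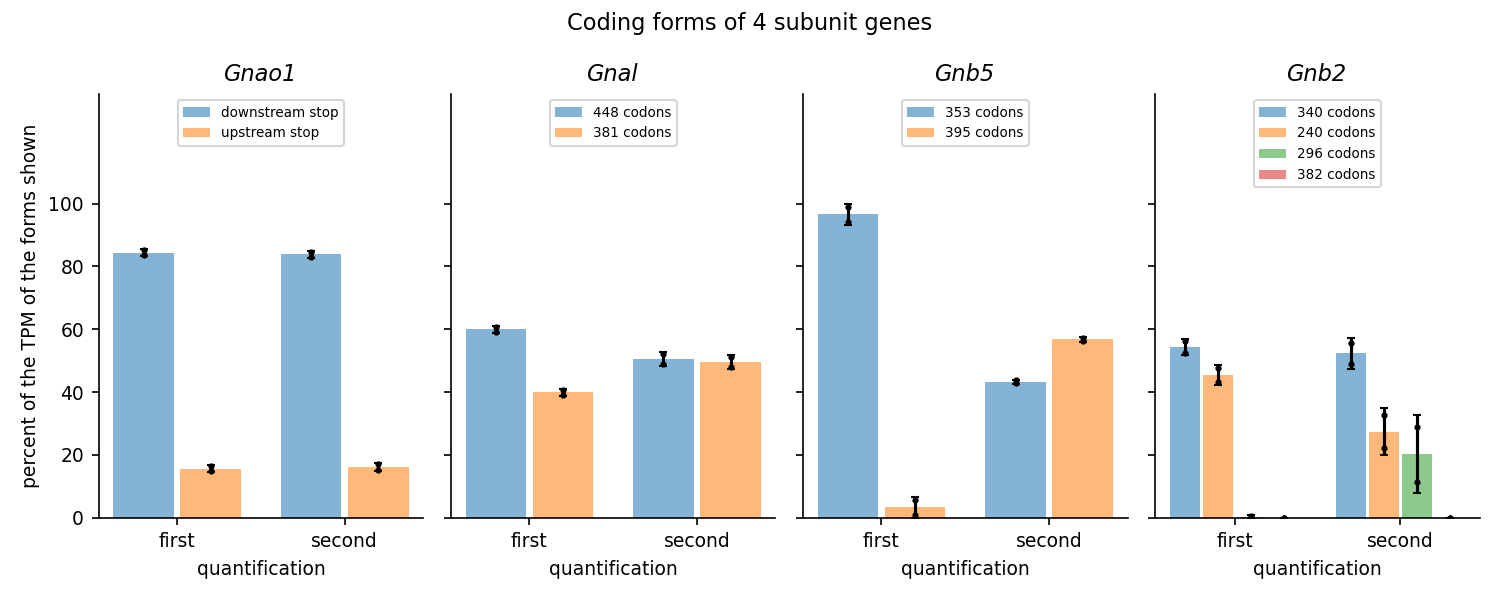
Percent taken by each coding form of Gnao1, Gnal, Gnb5 and Gnb2, of the summed TPM of the forms drawn for that gene (for Gnal, Gnb5 and Gnb2, forms that share the stop codon of the longest), in the first and second quantification. Bars are means over the 2 libraries, error bars SD and dots the libraries; the bars of Gnao1 are at the same height in both quantifications, and those of Gnb5 change places.

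The same question was put to all members by the major transcript, the one with the highest mean TPM of its gene. Of 21 detected members with more than 1 annotated transcript, 14 had the same major transcript in both quantifications, and 75.4% of all 11476 such protein-coding genes did. The members that differed were Gnao1, Gnb2, Gnb4, Gnb5, Gng5, Gng7 and Gngt2. In the first quantification the major transcript of Gnb2 and of Gnb4 was one with a retained intron. Over all members, retained-intron transcripts took 12.2% ± 2.52 of the TPM and transcripts annotated as protein-coding took 85.5% ± 2.11.

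Between the libraries the subunit genes were close together. Scaled counts of replicate 2 were divided by those of replicate 1. Among the 22 members whose counts averaged at least 100, 0 had a log2 ratio beyond 0.32 in either direction, and 6.24% of all 12651 genes with such counts did. At 1.5-fold the count was 0 of 22, beside 1.34% of all genes, and at 2-fold 0 of 22, beside 0.466%. Lowering the minimum to a mean count of 10 brought in 3 members beyond 0.32, beside 19.6% of all genes, and these were Gnb3, Gng8 and Gna14. For the 22, log2 ratios ran from -0.22 for Gng5 to 0.11 for Gng7, with a median of -0.04. Over all genes the median was -0.02. Of the members, 16 were lower in replicate 2 and 6 were higher, namely Gng7, Gnb2, Gna13, Gnai2, Gng10 and Gng4. Of all 12651 genes, 7025 were lower and 5626 higher, so the background leaned the same way. Gnaq, at -0.18, and Gng3, at -0.14, lay nearest to Gng5 at the low end, and Gnao1 was at -0.12. Scaling to the spike-in RNAs moved the median of all genes to 0.25. With it, 0 of the 22 members were lower in replicate 2, beside 414 of all 12651 genes, and the median of the members was 0.22. The split into higher and lower members thus depends on the scaling.

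**Figure D4:**
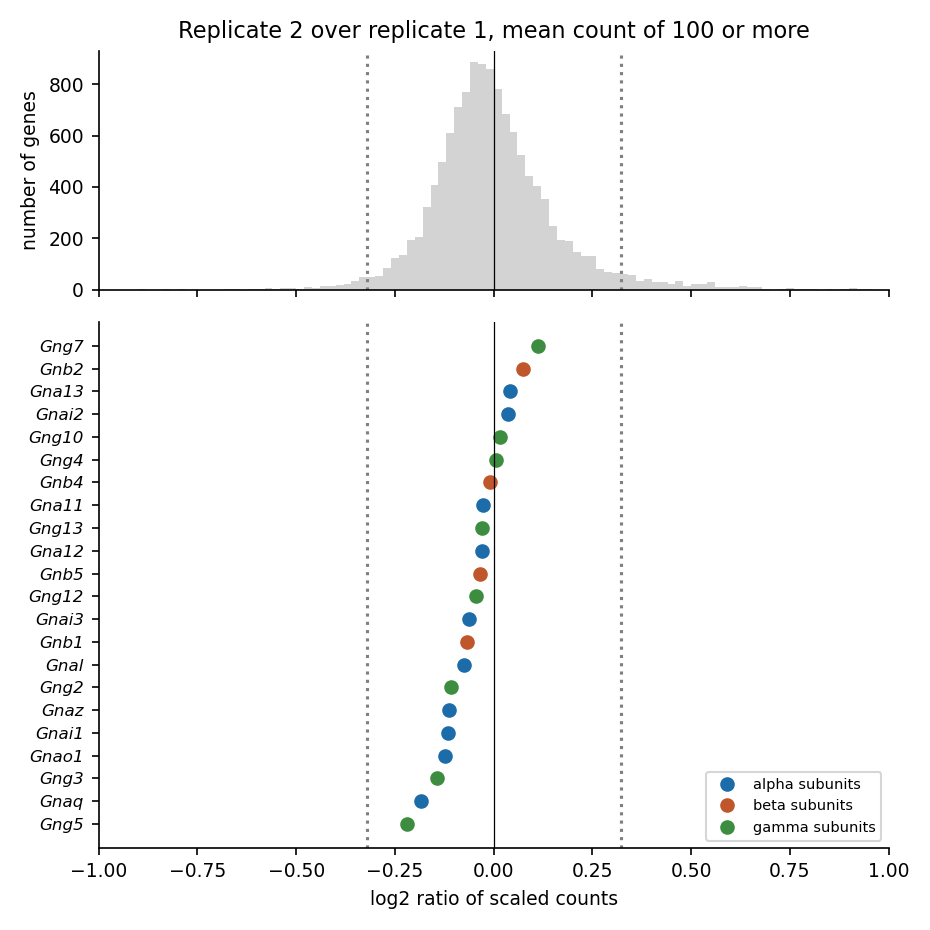
Log2 ratio of scaled counts, replicate 2 over replicate 1, as a histogram of all 12651 genes averaging at least 100 counts (top; the 59 genes over 2-fold apart lie outside the axis) and for the 22 such members (bottom). All 22 points lie between the dotted lines at -0.32 and 0.32, from Gng5 at -0.22 to Gng7 at 0.11.

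Gnb3 (chromosome 6, 124834240 to 124840275, minus strand) was the exception among all members in the size of its gap. It encodes the beta subunit of cone transducin, which is also found in retinal bipolar cells and in the pineal gland. Replicate 1 had 3 counts of it and replicate 2 had 120, or 0.07 and 3.20 TPM. The ratio of the scaled counts was 42.1, with an exact 95% interval of 14.1 to 207. On the log2 scale with a prior count it was 5.17, and it was 5.16 with DESeq2 size factors, 5.2 with total counts, 5.42 with the spike-ins and 6.39 in the second quantification. Of all genes with a mean count from 10 to under 100, 8.33% were over 2-fold apart.

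Several marker lists moved the same way as Gnb3. In the choroid plexus list 8 of 8 genes were higher in replicate 2, and Ttr, the transthyretin gene that leads it, had 533 counts in replicate 1 and 30135 counts in replicate 2. In the list for meninges, the membranes around the brain, 5 of 5 genes were higher, with a summed level of 51.0 TPM in replicate 1 and 102 TPM in replicate 2. For retinal photoreceptors, the cells where Gnb3 is best known, 7 of 8 genes were higher in replicate 2, and the list summed to 69.1 and 177 counts, with 0 of 8 detected. The cone pigment gene Opn1sw had 2 and 3 counts in replicates 1 and 2, and the cone pigment gene Opn1mw 6 and 3 counts. Pde6c, the phosphodiesterase subunit of cones, had 0 and 25 counts, Pde6b, its counterpart in rods, 4 and 14 counts, and the arrestin gene Sag 35.1 and 68.1 counts. The genes of this list thus differed in how far they moved.

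A list for the pineal gland was added after the values were seen, and shares Crx and Sag with the photoreceptor list. It holds Tph1, Aanat, Asmt, Lhx4, Crx, Sag and Otx2, and 7 of 7 genes were higher in replicate 2, with summed counts of 61.1 and 775. Tph1, the tryptophan hydroxylase of serotonin synthesis outside neurons, had 4 counts in replicate 1 and 477 in replicate 2. Of the enzymes that make melatonin, Aanat had 7 and 17 counts and Asmt 1 and 7 counts. Otx2, a transcription factor of choroid plexus, pineal gland and retina, had 14 and 142 counts. Crx, a transcription factor of photoreceptors and pinealocytes, had 0 and 38 counts. The part of these tissues in the Gnb3 result was not tested.

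The remaining cone and rod members had fewer counts than Gnb3 had in replicate 2. Gnat2 had 0 and 10 counts, and its scaled level in replicate 2 was 3.51-fold a floor of 3 counts in replicate 1. This figure leaves out the counting error of the 10 counts, so it is not a lower limit like those of the intervals. For Gnat1, with 1 and 3 counts, the ratio was 3.16 with an exact interval of 0.25 to 166, which includes no difference. Gngt2, the cone gamma subunit, was 1.10-fold apart, with an interval of 0.59 to 2.07. The interval of Gngt2 thus lay wholly below that of Gnb3. Gng8 and Gna14, the other members near the limit, had ratios of 0.65 and 0.79, with intervals of 0.23 to 1.69 and 0.49 to 1.27, so neither difference was detectable at this depth.

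**Figure D5:**
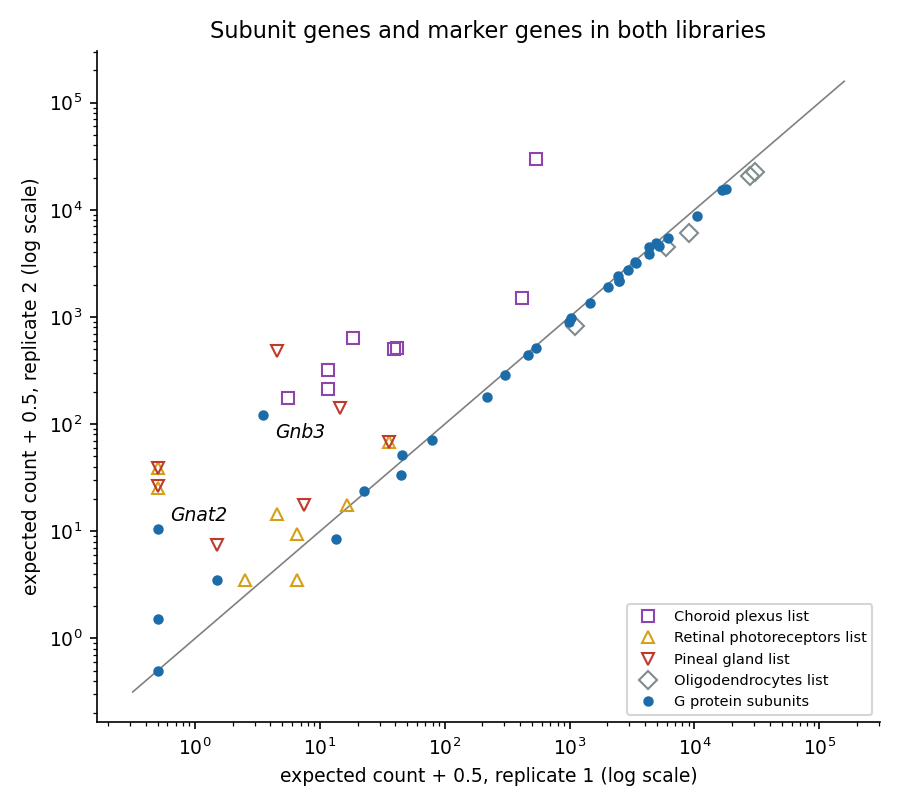
Expected count + 0.5 in replicate 1 (x axis) and replicate 2 (y axis), both on log scales, for the 32 subunit genes (filled circles) and for marker lists of choroid plexus, retinal photoreceptors, pineal gland and oligodendrocytes (open symbols), with a line of equal counts. Gnb3, at 3 and 120 counts, lies far above the line, as do some markers of the choroid plexus, pineal and photoreceptor lists. Other markers of these lists lie nearer to the line, and the abundant subunit genes lie along it.

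The genes that fold, modify and regulate the subunits, or that the subunits act on, were described as 9 lists with 50 genes in all. Of these, 46 were detected, beside 57.6% of all protein-coding genes. The genes that averaged at least 100 counts were also 46, but not the same 46. Among them 0 had a log2 ratio between the libraries beyond 0.32, beside 6.24% of all genes, with a median of -0.03. The detected gene Grk4, left out of this count at a mean of 94.5 counts, had a log2 ratio of 0.52. For each list the 2 genes with the highest TPM are named, with the mean level.

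For the making of the subunits, the chaperones of newly made alpha subunits Ric8a and Ric8b were at 31.0 ± 0.37 and 16.4 ± 0.43 TPM. In the list for lipid modification 9 of 9 genes were detected, led by Nmt1 at 64.8 ± 1.69 TPM and Nmt2 at 36.1 ± 4.38 TPM, the enzymes that attach myristate to the glycine of Gi/o subunits. The shared subunit of the prenyl transferases and both specific subunits, Fnta, Fntb and Pggt1b, belong to the same list and were all detected. Receptor kinases and arrestins, which end signalling, were detected for 7 of 7 genes. They were led by Grk2, which beta-gamma recruits to the membrane, at 74.5 ± 5.11 TPM, and by Arrb1, at 55.7 ± 4.53 TPM. Among regulators other than receptors, Rap1gap, a GTPase-activating protein for Rap that Gi/o subunits bind, was at 106 ± 4.34 TPM. Ccdc88a, which encodes girdin, an activator of Gi outside receptors, was at 25 ± 0.23 TPM.

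On the effector side, the list for Gq/11 was led by the guanine nucleotide exchange factors Kalrn, at 195 ± 8.20 TPM, and Arhgef25, at 136 ± 10.1 TPM, and 6 of 7 genes were detected. The exchange factors downstream of G12/13 were detected for 3 of 3 genes, led by Arhgef12 at 58.5 ± 0.65 TPM and Arhgef1 at 33.6 ± 1.66 TPM. Gprin1, a partner of activated Go in neurite growth, was at 58.7 ± 2.43 TPM, well above Gprin3 at 4.12 ± 0.46 TPM. The potassium channel subunits opened by beta-gamma, Kcnj6 and Kcnj3, were at 46.7 ± 2.46 and 44.1 ± 2.42 TPM. The partners of Gnb5 were detected for 6 of 6 genes. Rgs7bp, which anchors the complexes of Gnb5 and RGS7-family proteins at the membrane, was at 60.0 ± 7.31 TPM, and Rgs7 at 30.8 ± 0.23 TPM.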

How the data were processed

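Total RNA-seq of 2 hippocampus libraries, replicates 1 and 2 of 1 group, was used, with groups taken from the labels. The authors deposited expected counts and TPM per gene and per transcript, and each transcript's percent of the gene TPM, per the file headers. A second transcript table holds estimated counts and TPM deposited from another quantification. The build is mm10, per the labels. Software and use of strand in counting: not given in the sources used here. The column names resemble those of RSEM and kallisto.

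All 55536 gene identifiers matched GENCODE M21, which gave types, coordinates and coding sequences. The 96 spike-ins were left out of library sizes, and so were 26248 entries without a gene name, which took 4 and 5 counts or 1.23e-05 and 1.62e-05% of the counts. After rounding, edgeR 4.0.16 (R 4.3.3) scaled the expected counts by TMM, with a prior count of 0.5. The script was tested on simulated data. DESeq2 1.42.0, total counts and spike-ins gave other scalings. Exact (Clopper-Pearson) 95% intervals on count ratios cover counting error only. A count within 0.005 of a whole number was taken as whole. Coding sequences were aligned and forms grouped by start and stop codon with Biopython 1.88 in Python 3.11.15 (pandas 2.3.3, numpy 2.4.6, scipy 1.17.1, matplotlib 3.10.9).

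The members and lists were chosen with earlier results of these data known. All members are named. Other genes are named as the 2 with the highest mean TPM of a pathway list, or over 2-fold apart there, or as relatives left out by the rule. Genes that overlap a member, markers set beside Gnb3, the prenyl transferase genes and Grk4 were named after their values were seen. The design allowed no test between conditions.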

Additional observations from a re-analysis of the deposited data

How the results depend on the processing

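No paired analysis was possible because the libraries form 1 group, with no second group to share replicate numbers. Detection gave 25 genes at 1 TPM, 27 at 0.5 TPM, 22 at 5 TPM, 26 in the second quantification and 26 in each replicate alone. The count of members beyond a log2 ratio of 0.32 between the libraries, 0 of 22, was also 0 with DESeq2 size factors, total counts, the second quantification, 1.5-fold and 2-fold. It was 2 with spike-in scaling (Gng7 and Gnb2), which moved the median log2 ratio of all genes to 0.25. It was 3 with a mean count of 10 or more (Gnb3, Gng8 and Gna14, where 19.6% of all genes passed). With no filter it was 6, which adds Gnat1, Gnat2 and Gngt1. The share of all genes that passed was taken only with TMM scaling, at the folds and minimum counts given. The counts with DESeq2 size factors, total counts, spike-in scaling, the second quantification and no filter therefore have no background. The detected share of all protein-coding genes was likewise taken only at 1 TPM in both libraries of the first quantification. Leaving out a replicate leaves no ratio between replicates. In the second quantification the Gi/o share of alpha TPM was 70.8%, the Gnao1 share 45.5%, the Gnb1 share of beta TPM 61.7% and the Gng2 share of gamma TPM 22.3%, and in CPM, which is not per length, these were 55.7%, 33.0%, 68.2% and 36.0%. With Gnas added, the Gi/o share was 32.7% and the Gnao1 share 18.1%. The replicates alone gave 66.91 to 66.95%, 36.7 to 37.4%, 49.9 to 53.0% and 29.6 to 29.7% for the same 4 shares. The same major transcript was found for 14 of 21 genes, for 9 of 16 among protein-coding transcripts only, for 12 of 17 at 10 TPM and for 14 and 15 in single replicates. Alternatives added after seeing the data were the second quantification for the leading genes and coding forms: Gnao1 and Gnb1 still led, Gng7 led in place of Gng2, the downstream Gnao1 share was 83.8%, that of the short Gnb5 form 43.3%, and the alpha share with the cysteine codon 65.9%. The causes of these differences were not tested. With 2 libraries the SD is itself imprecise, and levels under about 10 counts are limited by depth.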

Other observations

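Gnb1l, a gene named for its likeness to Gnb1 that the rule leaves out, was at 2.64 TPM in replicate 1 and 1.91 TPM in replicate 2, below each of the 4 detected beta genes. The pseudogenes that matched by name had almost no reads: Gng2-ps1 had 1 and 0 counts, and Gng5-ps 0 and 2.18 counts. Among coding sequences of the same class, the closest pairs were Gnaq with Gna11, at 80.7% identity, and Gnai1 with Gnai2, at 78.5%. The counts of these 4 genes were whole numbers in both libraries.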
